A study of Rattus norvegicus with 9 samples.

Results

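The proteasome genes of rat kidney fibroblasts were followed across 9 RNA-seq libraries. Members were chosen by gene symbol: every symbol that starts with Psm, a letter from a to g and a digit, and that had a count above 0 in any library. The choice gave 50 of 22050 genes in the table, and all 50 symbols of that form had such a count, so none lay outside the count threshold. The authors' table places 41 of the 50 in the KEGG Proteasome pathway. The cells were NRK-49F, a long-established rat renal fibroblast line, labelled as genotype wt. TGF-β1, the cytokine best known for turning fibroblasts into contractile cells that deposit matrix, was present in every group, with an incubation of 48 h. The 3 groups, of 3 libraries each, added vehicle, YEXX-2A or YWCH-4A to it. The series asks, per its title and design text, how small molecules against kidney fibrosis alter gene expression in these cells. The labels state neither dose nor timing for YEXX-2A and YWCH-4A, which are code names, and unstimulated cells are not analysed here. The labels call the replicates biological. Whether they were separate cultures is not stated, so each p-value measures the spread between these libraries.

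The proteasome is the protease that degrades proteins tagged with ubiquitin. Its 20S core is a barrel of outer rings of α subunits, which gate the entrance, and inner rings of β subunits, of which Psmb5, Psmb6 and Psmb7 carry the catalytic sites. The 19S particle caps the core, recognises ubiquitin, removes it and unfolds the substrate with a ring of ATPases (the Psmc genes) and a set of non-ATPase subunits (most Psmd genes). Interferon-γ is known to induce the alternative catalytic subunits Psmb8, Psmb9 and Psmb10, which replace Psmb5, Psmb6 and Psmb7 in newly assembled cores to form the immunoproteasome. The same stimulus induces Psme1 and Psme2, the PA28α and PA28β subunits of a cap that opens the core without ATP. These 5 genes are called the immune members here. Their products favour peptides that are loaded onto MHC class I molecules.

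The sequences upstream of 4 immune genes and of the constitutive subunit gene Psmb5 are shown because the immune genes moved together and interferon-responsive motifs are the textbook feature of their promoters. Each is the 250 bases before the annotated start in RefSeq (build GRCr8), 5′ to 3′ on the gene's own strand, with capitals marking matches to a searched motif. They lie at chr19:50743293-50743542 (Psmb10, minus strand), chr15:33052752-33053001 (Psme2, minus strand), chr20:4657032-4657281 (Psmb8, minus strand), chr20:4668750-4668999 (Psmb9, plus strand) and chr15:32047380-32047629 (Psmb5, minus strand).
Psmb10: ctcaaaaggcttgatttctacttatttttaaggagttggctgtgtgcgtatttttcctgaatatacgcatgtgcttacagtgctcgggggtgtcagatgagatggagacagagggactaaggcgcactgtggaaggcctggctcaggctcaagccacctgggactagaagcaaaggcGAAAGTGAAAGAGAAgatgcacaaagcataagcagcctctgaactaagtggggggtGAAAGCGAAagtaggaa
Psme2: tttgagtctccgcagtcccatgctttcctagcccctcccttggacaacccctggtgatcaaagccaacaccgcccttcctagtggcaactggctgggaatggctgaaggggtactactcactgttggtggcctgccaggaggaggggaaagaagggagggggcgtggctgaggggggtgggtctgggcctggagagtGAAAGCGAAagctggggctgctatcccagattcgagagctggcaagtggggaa
Psmb8: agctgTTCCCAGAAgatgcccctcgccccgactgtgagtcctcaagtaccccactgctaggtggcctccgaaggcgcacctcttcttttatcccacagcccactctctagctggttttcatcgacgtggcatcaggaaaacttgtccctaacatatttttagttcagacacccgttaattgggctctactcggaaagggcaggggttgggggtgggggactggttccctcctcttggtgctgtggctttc
Psmb9: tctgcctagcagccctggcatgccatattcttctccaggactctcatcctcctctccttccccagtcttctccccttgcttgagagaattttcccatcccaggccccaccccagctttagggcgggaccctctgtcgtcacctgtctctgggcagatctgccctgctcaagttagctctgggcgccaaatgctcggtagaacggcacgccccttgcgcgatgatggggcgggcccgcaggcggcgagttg
Psmb5: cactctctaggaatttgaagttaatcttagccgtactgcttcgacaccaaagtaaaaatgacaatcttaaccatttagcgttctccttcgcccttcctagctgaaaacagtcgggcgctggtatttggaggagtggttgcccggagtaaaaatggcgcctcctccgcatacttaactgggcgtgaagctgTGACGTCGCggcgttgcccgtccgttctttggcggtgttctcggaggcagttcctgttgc

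The core of the interferon-stimulated response element, searched as GAAANNGAA on both strands, was found 3 times upstream of Psmb10, at 65 to 73, 59 to 67 and 9 to 17 bases before the start, and the first pair of these matches overlap. Psme2 held 1 such match, GAAAGCGAA, at 45 to 53 bases before the start, with the same letters as the match nearest the start of Psmb10. The interferon-γ-activated site (GAS) motif, searched as TTCNNNGAA, was found in Psmb8 at 237 to 245 bases before the start. Psmb9 and Psme1 held neither motif in this window. Of the 50 members, 45 were matched to a promoter entry, and the response element core was found in 7 of them (15.6%), against 8.12% of all 33469 promoters of that length. Of these holders 2 were immune members, and 5 were among the 40 other matched members (12.5%): Psma4, Psmb2, Psmb3, Psmd7 and Psmd11. The GAS motif was found in 4 of 45 (8.89%), against 7.67% of all promoters. Its holders were 1 immune member and 3 of the 40 others (7.5%), Psmc6, Psmd3 and Psmd7. The NF-κB motif, searched as GGNNTTTCC, was found in 5 of 45 (11.1%), against 5.19% of all, and in 0 of the 5 immune members. The core antioxidant response element TGACNNNGC, the kind of motif bound by NRF1 (the product of Nfe2l1, the known inducer of proteasome genes), was found in 7 of 45 (15.6%), against 10.1% of all. Its 7 holders were Psma3l, Psmb2, Psmb5, Psmb6, Psmd1, Psmd9 and Psme4, and none was an immune member. The CCAAT box was found in 22 of 45 (48.9%), against 34% of all, and in 1 immune member. These matches describe letters in the window alone. The genes Psmb8 and Psmb9 start 11969 bases apart on chromosome 20, and Psmb9 starts 456 bases from the oppositely oriented Tap1, a subunit of the peptide transporter that feeds class I loading. Psme1 and Psme2 start 13780 bases apart on chromosome 15.

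The libraries held 13675868 to 21923715 estimated counts. Vehicle replicate 2 stood apart: over all tested genes its median absolute log2 deviation from the mean of the other vehicle libraries was 0.31, against 0.15 and 0.20 for vehicle replicates 1 and 3 and 0.07 to 0.11 for the 6 compound libraries. The fibroblast label was set against markers. The 8 fibroblast markers summed to 66680 to 85680 CPM (counts scaled to library size, with TMM factors) with vehicle, 55390 to 60150 with YEXX-2A and 35720 to 38950 with YWCH-4A, while 5 of 6 kidney epithelial markers (Slc12a1, Umod, Epcam, Krt18, Aqp2) were at 0 in all 9 libraries. The 8 leukocyte markers summed to 47.4 to 62.9 CPM with vehicle, 41.7 to 45.1 with YEXX-2A and 66.4 to 73.9 with YWCH-4A, and nearly all of this was Cd68, a lysosomal protein gene. The other 7 leukocyte markers, Ptprc and Tyrobp among them, summed to at most 0.637 CPM in any library, and Cd3e was at 0 throughout. Of 6 endothelial markers, 5 were found in the table. They summed to 2.22 to 2.80 CPM with vehicle, 1.63 to 4.32 with YEXX-2A and 2.75 to 3.99 with YWCH-4A. The 1 that was tested, Vwf, was called higher with YWCH-4A against vehicle (log2 fold change 0.96). Of the 8 fibroblast markers 6 were tested, as Thy1 and Dcn did not pass the filter on low counts. With YWCH-4A the 6 did not move together. Col3a1, Col1a1 and Vim fell, and Pdgfra rose by 0.69 ± 0.08 on the log2 scale (edgeR adjusted p = 7.25e-05). Pdgfrb and Fn1 were not called against vehicle. The part of the fibroblast markers in the results on YWCH-4A was not tested.

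Members made up 0.522% to 0.567% of all counts with vehicle, 0.568% to 0.582% with YEXX-2A and 0.661% to 0.685% with YWCH-4A. The 3 ranges did not overlap, by a narrow margin between vehicle and YEXX-2A. These shares carry no TMM scaling, and the TMM factors were 0.898 to 0.972 with vehicle, 0.989 to 1.004 with YEXX-2A and 1.056 to 1.068 with YWCH-4A. The 5 immune members took 0.0596% to 0.0662%, 0.0684% to 0.0742% and 0.11% to 0.113% in the same order. Shares of bulk RNA such as these cannot tell more expressing cells from more RNA per cell. Of the 50 members, 48 passed the filter on low counts and were tested among 11473 genes, and 48 had counts in all 9 libraries. Psmb11, the β subunit of the thymus proteasome, had 1 count in YEXX-2A replicate 1 and 0 in the other 8 libraries. Psma8, the testis α subunit, had 0 to 2 counts per library. Neither was tested. Psmc3ip and Psme3ip1 match the symbol pattern but encode partner proteins, and they are counted here as members, not as subunits. On the per-length scale (FPKM, fragments scaled to gene length and library size), the most abundant members with vehicle were Psmb3 at 224 ± 18.2 and Psme1 at 224 ± 21.3 (mean ± SD, n = 3), followed by Psmd2 at 198 ± 14.7 and Psmc3 at 195 ± 12.5, and the first pair in this order did not differ beyond their spread. The least abundant tested member was Psmd10 at 0.733 ± 0.061 FPKM. The immune subunits were not rare in these fibroblasts: Psmb8 stood at 112 ± 6.88 FPKM with vehicle, Psmb10 at 71.9 ± 5.76 and Psmb9 at 56.5 ± 1.42.

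With YWCH-4A, 17 of 48 tested members rose and 2 fell against vehicle (edgeR quasi-likelihood test, Benjamini-Hochberg adjusted p under 0.05 over all 11473 genes, called from here on). That was 35.4% and 4.17% of members, against a background of 15.7% of all tested genes called higher and 14.9% called lower. The median log2 fold change of the members was 0.08, against 0.03 over all genes tested. With YEXX-2A, 10 rose and 7 fell (20.8% and 14.6%), near the background of 17.6% higher and 18.5% lower, with a median of 0.05 against 0.01. Between the compounds, 11 were higher and 3 lower with YWCH-4A than with YEXX-2A (22.9% and 6.25%), against a background of 16.2% higher and 15.1% lower, with a median of 0.11 against 0.00. The comparisons against vehicle share their 3 control libraries. Leaving out YEXX-2A replicate 1 reduced the YEXX-2A calls to 2 higher and 1 lower, and leaving out YEXX-2A replicate 2 reduced them to 1 and 0, while the background fell to 5.50% higher and 7.12% lower, and to 3.87% and 5.15%. Leaving out YWCH-4A replicate 1 or replicate 2 left 11 higher and 0 lower in YWCH-4A against vehicle. The background was then 10.7% higher and 10.8% lower without replicate 1, and 10.6% for each without replicate 2. On log2(FPKM + 1), which carries no TMM scaling, limma called 29 members higher and 0 lower in that comparison, 12 and 3 in YEXX-2A against vehicle and 21 and 0 between the compounds. The background in those fits was 32% of genes higher and 8.98% lower, 20.1% and 12.3%, and 26% and 9.81%. On that scale the median of all genes tested itself stood at 0.18, 0.07 and 0.08, and that of the members at 0.28, 0.12 and 0.20.

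The immune genes rose as a set with YWCH-4A. All 5 of 5 immune members rose with YWCH-4A against vehicle and were higher than with YEXX-2A, in the fit reported here and in all 18 alternative settings. With YEXX-2A, 1 of 5 rose, Psmb9 (20%, near the background of 17.6%). The median log2 fold change of the 5 was 0.78 with YWCH-4A and 0.05 with YEXX-2A. The other 43 tested members had medians of 0.06 and 0.03. With YWCH-4A 12 of them rose and 2 fell (27.9% and 4.65%), against 15.7% and 14.9% of all tested genes. With YEXX-2A 9 rose and 7 fell (20.9% and 16.3%), near the background of 17.6% and 18.5%.

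Psmb9, the β1i subunit that replaces Psmb6, was measured at 54.4, 58.1 and 52.6 CPM in vehicle replicates 1 to 3. It stood at 70.8, 68.4 and 61.5 CPM with YEXX-2A and at 110, 117 and 105 CPM with YWCH-4A. The 3 groups did not overlap, and the YWCH-4A libraries were highest. The log2 fold change was 1.01 ± 0.08 (SE) with YWCH-4A (2.01-fold, edgeR adjusted p = 3.75e-06) and 0.28 ± 0.08 with YEXX-2A (edgeR adjusted p = 0.0219). The smaller change kept its size but lost its call without YEXX-2A replicate 1 (0.24, edgeR adjusted p = 0.0819) or replicate 2 (0.26, edgeR adjusted p = 0.0916). Between the compounds Psmb9 was 0.73 ± 0.08 higher with YWCH-4A (edgeR adjusted p = 5e-05).

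Psmb10, the β2i subunit that replaces Psmb7, was measured at 77.3, 83.3 and 67.9 CPM with vehicle, 82.1, 77.6 and 81.2 CPM with YEXX-2A, and 133, 130 and 130 CPM with YWCH-4A. Vehicle and YEXX-2A libraries overlapped and all YWCH-4A libraries lay above both. The log2 fold change against vehicle was 0.78 ± 0.08 with YWCH-4A (edgeR adjusted p = 2.48e-05) and 0.08 ± 0.08 with YEXX-2A (95% interval −0.09 to 0.25, edgeR adjusted p = 0.433). Psmb8, the β5i subunit that replaces Psmb5, was measured at 125, 134 and 117 CPM with vehicle, 132, 126 and 132 CPM with YEXX-2A, and 180, 171 and 171 CPM with YWCH-4A. The overlap was of the same form as for Psmb10. The log2 fold change was 0.47 ± 0.07 with YWCH-4A (edgeR adjusted p = 0.000312) and 0.05 ± 0.07 with YEXX-2A (95% interval −0.09 to 0.20). Between the compounds Psmb10 was 0.71 ± 0.08 and Psmb8 0.42 ± 0.07 higher with YWCH-4A on the log2 scale (edgeR adjusted p = 5.96e-05 and 0.000774).

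Psme2, the PA28β subunit, was measured at 192, 189 and 175 CPM with vehicle, 204, 187 and 183 CPM with YEXX-2A, and 320, 315 and 317 CPM with YWCH-4A. The 3 YWCH-4A libraries lay close together and above all others. The log2 fold change was 0.78 ± 0.06 with YWCH-4A (edgeR adjusted p = 5.47e-06) and 0.05 ± 0.06 with YEXX-2A (95% interval −0.09 to 0.19), and the difference between the compounds was 0.73 ± 0.06 (edgeR adjusted p = 1.07e-05). Psme1, the PA28α subunit, was measured at 233, 272 and 210 CPM with vehicle, 251, 223 and 234 CPM with YEXX-2A, and 315, 307 and 320 CPM with YWCH-4A. Vehicle replicate 2 was the highest of its group and still below the YWCH-4A libraries. The log2 fold change of Psme1 was 0.40 ± 0.09 with YWCH-4A (edgeR adjusted p = 0.0063) and −0.01 ± 0.09 with YEXX-2A (95% interval −0.21 to 0.18), and between the compounds it was 0.41 ± 0.09 (edgeR adjusted p = 0.00561). Within PA28, the FPKM of Psme2 was 0.585 ± 0.057 times that of Psme1 with vehicle, 0.606 ± 0.022 with YEXX-2A and 0.755 ± 0.013 with YWCH-4A (mean ± SD, n = 3).

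**Figure D1:**
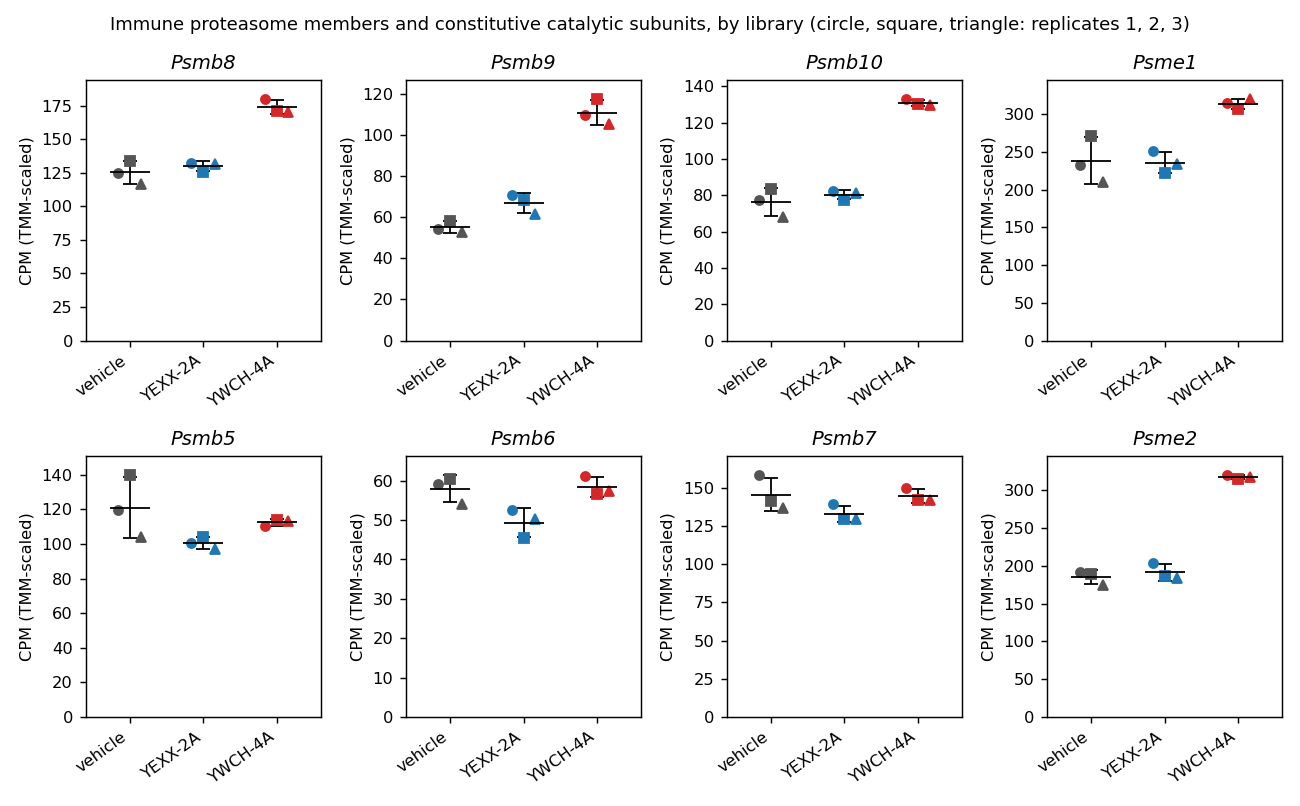
TMM-scaled CPM of the immune members Psmb8, Psmb9, Psmb10, Psme1 and Psme2 and of the constitutive catalytic subunits Psmb5, Psmb6 and Psmb7 in each library (points, shape by replicate), with the group mean and SD (bars, n = 3). All 5 immune members sit higher in the 3 YWCH-4A libraries than in any vehicle or YEXX-2A library, and the constitutive subunits do not.

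None of the 3 constitutive catalytic subunits was called higher with either compound. Psmb5 was measured at 119, 140 and 104 CPM with vehicle, 101, 104 and 97.3 CPM with YEXX-2A, and 110, 114 and 113 CPM with YWCH-4A. Vehicle replicate 2 was the highest of the 9 libraries. Psmb6 was measured at 59.2, 60.5 and 54.2 CPM with vehicle, 52.5, 45.3 and 50.2 CPM with YEXX-2A, and 61.2, 56.5 and 57.4 CPM with YWCH-4A. Psmb7 was measured at 158, 142 and 137 CPM, 139, 130 and 130 CPM, and 150, 142 and 142 CPM in the same order. With YWCH-4A the 3 ranges overlapped those of vehicle, and the log2 fold changes were −0.11 ± 0.09, 0.01 ± 0.08 and −0.01 ± 0.07, none called, with 95% intervals of −0.31 to 0.10, −0.16 to 0.19 and −0.16 to 0.14. With YEXX-2A, Psmb5 fell by 0.27 ± 0.09 (edgeR adjusted p = 0.0476) and Psmb6 fell by 0.23 ± 0.08 (edgeR adjusted p = 0.044) on the log2 scale. These calls lay near the threshold and were kept in 5 and 6 of the 18 alternatives, and each was lost when any single YEXX-2A library was left out. Without vehicle replicate 2 the change of Psmb5 was −0.15 and not called (edgeR adjusted p = 0.051), and that of Psmb6 was −0.20 (edgeR adjusted p = 0.0375). Psmb7 was not called with YEXX-2A (−0.13 ± 0.07). Between the compounds Psmb6 was 0.24 ± 0.08 higher with YWCH-4A (edgeR adjusted p = 0.0389), a call kept in 10 of 18 alternatives and lost without vehicle replicate 1, YEXX-2A replicate 2 or 3, or any YWCH-4A library.

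The ratio of each immune subunit to the constitutive subunit it replaces was taken per library from FPKM, in which scaling between libraries cancels. No test was run on the ratios. Psmb9 over Psmb6 was 0.719, 0.751 and 0.758 with vehicle, 1.05, 1.18 and 0.959 with YEXX-2A, and 1.40, 1.62 and 1.44 with YWCH-4A. Psmb8 over Psmb5 was 0.883, 0.800 and 0.915 with vehicle, 1.07, 0.988 and 1.10 with YEXX-2A, and 1.33, 1.22 and 1.23 with YWCH-4A. Psmb10 over Psmb7 was 0.452, 0.543 and 0.457, then 0.547, 0.556 and 0.576, then 0.825, 0.846 and 0.857. In each of the 3 pairs every YEXX-2A library lay above every vehicle library and every YWCH-4A library lay above every YEXX-2A library, by a narrow margin for Psmb10 over Psmb7 between vehicle replicate 2 and YEXX-2A. Summed over the 3 pairs, immune transcripts were 40.4% ± 0.563 of the catalytic total with vehicle, 45.6% ± 0.09 with YEXX-2A and 53.1% ± 0.362 with YWCH-4A (mean ± SD, n = 3). With YWCH-4A the higher ratios went with called rises of the 3 immune subunits. With YEXX-2A neither Psmb10 nor Psmb7 was called, and on the FPKM scale of the ratios neither were Psmb5 (limma adjusted p = 0.108) and Psmb6 (limma adjusted p = 0.106), while Psmb9 was. These are transcript ratios, and the subunits in assembled proteasomes were not measured.

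**Figure D2:**
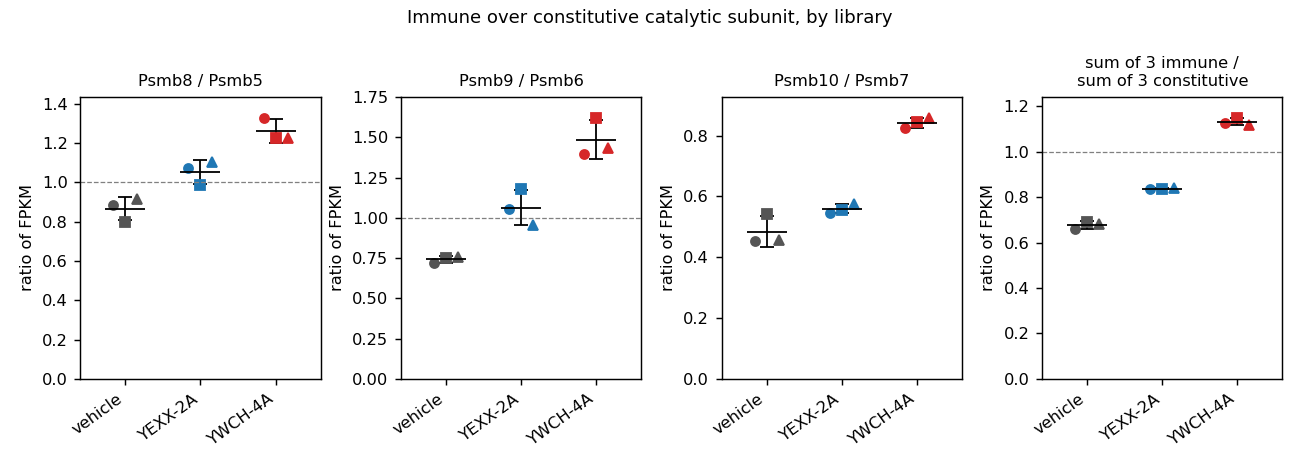
Ratio of FPKM of each immune catalytic subunit to its constitutive counterpart, and of the sums over the 3 pairs, in each library (points, shape by replicate), with the group mean and SD (bars, n = 3) and a dashed line at equal levels where it falls in range. Ratios rank vehicle, YEXX-2A, YWCH-4A in each panel, and the summed ratio is 0.677 with vehicle and 1.13 with YWCH-4A.

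In the α ring, which forms the gate of the core, most genes rose with both compounds. Of 7 tested α subunits, 5 rose with each compound (71.4%, against 17.6% of all tested genes with YEXX-2A and 15.7% with YWCH-4A). With YEXX-2A 1 fell (14.3%, against 18.5%). Psma4 was measured at 58.8, 38.3 and 67.1 CPM with vehicle, 91.5, 100 and 87.7 CPM with YEXX-2A, and 78.6, 85.6 and 75.0 CPM with YWCH-4A. All compound libraries lay above all vehicle libraries, of which replicate 2 was lowest. The log2 fold change of Psma4 was 0.77 ± 0.16 with YEXX-2A (edgeR adjusted p = 0.00917) and 0.54 ± 0.16 with YWCH-4A (edgeR adjusted p = 0.0268). Without vehicle replicate 2 these values were 0.57 and 0.34 and both stayed called (edgeR adjusted p = 4.49e-05 and 0.00161). The YWCH-4A call was lost without YWCH-4A replicate 1 or 2. With YEXX-2A, Psma4 was the sole α subunit still called when YEXX-2A replicate 1 (0.78, edgeR adjusted p = 0.0352) or replicate 2 (0.70, edgeR adjusted p = 0.0451) was left out.

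Psma5 rose by 0.36 ± 0.09 with YEXX-2A and 0.41 ± 0.09 with YWCH-4A on the log2 scale. Psma6 rose by 0.33 ± 0.11 and 0.43 ± 0.11, and Psma1 by 0.26 ± 0.07 and 0.36 ± 0.07. Psma3l, which RefSeq lists as a synonym of Psma3, rose with YEXX-2A alone in the calls (0.47 ± 0.13, and 0.31 ± 0.13 uncalled with YWCH-4A), and Psma2 with YWCH-4A alone (0.34 ± 0.10, and 0.23 ± 0.10 uncalled with YEXX-2A). Psma7 was the exception, falling by 0.18 ± 0.06 with YEXX-2A (−0.10 and not called on the FPKM scale) and standing at −0.06 ± 0.06 with YWCH-4A. The YWCH-4A calls of Psma1, Psma5 and Psma6 were kept when any library was left out, and that of Psma2 was lost without YWCH-4A replicate 1 or 2. Vehicle replicate 2 was the lowest vehicle library for Psma1, Psma2, Psma3l, Psma4, Psma5 and Psma6, by 0.23 to 0.71 on the log2 scale below the mean of the other vehicle libraries. Without it, Psma5, Psma6 and Psma1 stayed called with both compounds, at 0.26, 0.20 and 0.19 with YEXX-2A and 0.32, 0.30 and 0.29 with YWCH-4A. Psma3l was then at 0.31 with YEXX-2A, still called, and at 0.15 with YWCH-4A. The difference between the compounds was not called for any of the 7 α subunits and ran from −0.23 to 0.12, the widest 95% interval being that of Psma4 (−0.57 to 0.12). Without vehicle replicate 2, 4 of the 7 were called at about the same sizes. Psma4 (−0.23, edgeR adjusted p = 0.00735) and Psma3l (−0.15, edgeR adjusted p = 0.0325) were then lower with YWCH-4A than with YEXX-2A, and Psma7 (0.12, edgeR adjusted p = 0.0289) and Psma2 (0.12, edgeR adjusted p = 0.045) were higher.

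Among the 7 constitutive β subunits, 0 rose and 2 fell with YEXX-2A (Psmb5 and Psmb6), and 2 rose and 0 fell with YWCH-4A. The 2 that fell were 28.6%, against 18.5% of all tested genes, and the 2 that rose were 28.6%, against 15.7%. The risers are subunits that standard and immune cores share, Psmb2, at 0.25 ± 0.07 (edgeR adjusted p = 0.0151), and Psmb1, at 0.19 ± 0.06 (edgeR adjusted p = 0.0443). The call of Psmb2 was lost without YWCH-4A replicate 2 or 3, and that of Psmb1 without vehicle replicate 3 or any compound library. Psmb3 and Psmb4 were not called against vehicle. All 7 had a positive log2 difference between the compounds (0.10 to 0.28, higher with YWCH-4A), and 2 of them were called, Psmb3 at 0.28 ± 0.08 and Psmb6, and the call of Psmb3 was lost without YEXX-2A replicate 2 or 3 or any YWCH-4A library. The median log2 fold change of the constitutive β ring was −0.13 with YEXX-2A and 0.06 with YWCH-4A, beside 0.33 and 0.36 for the α ring. Without vehicle replicate 2 these medians were −0.13 and 0.10 for the β ring and 0.20 and 0.29 for the α ring, and 5 of the 7 constitutive β subunits were called higher with YWCH-4A than with YEXX-2A.

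Of the 17 subunits of the 19S cap, 3 rose and 3 fell with YEXX-2A (17.6% each), near the background of 17.6% and 18.5%. With YWCH-4A 2 of the 17 rose and 0 fell (11.8% and 0%), against 15.7% and 14.9% of all tested genes. Of the 6 ATPases of the cap, 2 rose and 1 fell with YEXX-2A. None was called with YWCH-4A, where their log2 fold changes ran from −0.15 to 0.13. Psmc6, the ATPase Rpt4, was measured at 35.0, 18.1 and 38.6 CPM with vehicle, 48.4, 56.5 and 45.9 CPM with YEXX-2A, and 31.7, 34.2 and 30.8 CPM with YWCH-4A. The YEXX-2A libraries lay above all others, and vehicle replicate 2 lay far below the other 8. Psmc6 rose by 0.72 ± 0.21 with YEXX-2A (edgeR adjusted p = 0.0283) and was lower with YWCH-4A than with YEXX-2A (−0.64 ± 0.21, edgeR adjusted p = 0.04). Without vehicle replicate 2 the rise with YEXX-2A was 0.46 (edgeR adjusted p = 0.000921) and the difference between the compounds −0.64 (edgeR adjusted p = 2.07e-06). That difference was lost when any 1 compound library was left out. Psmc1 (Rpt2) rose by 0.25 ± 0.07 with YEXX-2A, and Psmc3 (Rpt5) fell by 0.27 ± 0.07. All 3 YEXX-2A calls of the ATPases were lost without YEXX-2A replicate 1 or replicate 2.

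Of the 11 non-ATPase subunits, 1 rose and 2 fell with YEXX-2A, and 2 rose and 0 fell with YWCH-4A. Psmd6 was measured at 61.1, 48.6 and 63.9 CPM with vehicle, 74.7, 81.8 and 75.8 CPM with YEXX-2A, and 75.2, 77.3 and 74.0 CPM with YWCH-4A. Both compound groups lay above all vehicle libraries and overlapped each other. Psmd6 rose by 0.42 ± 0.10 with YEXX-2A (edgeR adjusted p = 0.0122) and 0.38 ± 0.10 with YWCH-4A (edgeR adjusted p = 0.0117). The large scaffold subunit Psmd2 (Rpn1) fell by 0.31 ± 0.08 with YEXX-2A (edgeR adjusted p = 0.0188), and Psmd3 (Rpn3) fell by 0.26 ± 0.08 (edgeR adjusted p = 0.0367). With YWCH-4A these stood at −0.16 ± 0.08 and −0.01 ± 0.08, not called. Psmd8 (Rpn12) rose by 0.22 ± 0.07 with YWCH-4A (edgeR adjusted p = 0.0421) and was 0.41 ± 0.07 higher than with YEXX-2A (edgeR adjusted p = 0.00182). The YEXX-2A call of Psmd6 was lost without YEXX-2A replicate 2 (0.37, edgeR adjusted p = 0.0593), those of Psmd2 and Psmd3 without replicate 1 or 2, and that of Psmd3 also without replicate 3 or any YWCH-4A library. Without vehicle replicate 2 the change of Psmd3 with YEXX-2A was −0.16 (edgeR adjusted p = 0.0206). The rise of Psmd8 against vehicle was lost without any library but vehicle replicate 2, and its difference between the compounds was kept throughout. Psmd14, the deubiquitinase Rpn11, and Psmd4, a ubiquitin receptor, were not called in any of the 3 comparisons.

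Of the other activators and the inhibitor, 1 of 3 rose with YEXX-2A, and 1 rose and 1 fell with YWCH-4A. Psme4, which encodes the large activator PA200, was measured at 61.1, 32.9 and 67.0 CPM with vehicle, 88.3, 99.5 and 71.9 CPM with YEXX-2A, and 57.5, 54.0 and 45.7 CPM with YWCH-4A. YEXX-2A libraries were highest, and vehicle replicate 2 was the lowest of the 9. Psme4 rose by 0.69 ± 0.22 with YEXX-2A (edgeR adjusted p = 0.0349), a call lost without vehicle replicate 2 (0.44, edgeR adjusted p = 0.0618), YEXX-2A replicate 1 or 2, or YWCH-4A replicate 1 or 2. Between the compounds its log2 difference was −0.73 ± 0.22, lower with YWCH-4A (edgeR adjusted p = 0.0279), and −0.73 without vehicle replicate 2 (edgeR adjusted p = 0.00325). That difference was lost without YEXX-2A replicate 1 or 2 or any YWCH-4A library. Psme3, the nuclear PA28γ, was measured at 203, 212 and 196 CPM with vehicle, 205, 202 and 210 CPM with YEXX-2A, and 182, 174 and 183 CPM with YWCH-4A. The YWCH-4A libraries lay below all others, but the fall of 0.18 ± 0.06 against vehicle (edgeR adjusted p = 0.0314) was kept in 7 of 18 alternatives, and on the FPKM scale the value was −0.01. Psmf1, the inhibitor PI31, rose by 0.33 ± 0.09 with YWCH-4A (edgeR adjusted p = 0.0199) and was 0.35 ± 0.09 higher than with YEXX-2A (edgeR adjusted p = 0.0154). The first of these calls was lost without vehicle or YWCH-4A replicate 1 or 3, and the second without YEXX-2A replicate 1 or 2 or YWCH-4A replicate 3.

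Of 7 assembly chaperones, 0 rose and 1 fell with YEXX-2A (0% and 14.3%, against 17.6% and 18.5% of all tested genes). With YWCH-4A 1 rose and 1 fell (14.3% each), near the background of 15.7% and 14.9%. Psmd9, a chaperone of the ATPase ring, was measured at 39.5, 45.6 and 37.3 CPM with vehicle, 34.3, 30.0 and 29.8 CPM with YEXX-2A, and 32.8, 33.0 and 31.3 CPM with YWCH-4A. All vehicle libraries lay above all compound libraries. Psmd9 fell by 0.38 ± 0.10 with YEXX-2A (edgeR adjusted p = 0.0178) and by 0.33 ± 0.10 with YWCH-4A (edgeR adjusted p = 0.0233), and the first call was lost without YEXX-2A replicate 2 and the second without any 1 of the YWCH-4A libraries. Psmd10, the chaperone and oncoprotein gankyrin, was barely expressed, with 6, 5 and 6 estimated counts with vehicle, 15, 7 and 8 with YEXX-2A, and 24, 32 and 15 with YWCH-4A. In CPM the YWCH-4A libraries lay above all others. Psmd10 was not tested with a stricter filter on low counts, nor when vehicle and YEXX-2A were fitted alone. It entered the test through the YWCH-4A libraries, where it was highest, so its calls were not independent of the filter. The counts of members called higher with YWCH-4A include it. Its log2 fold change with YWCH-4A was 1.60 ± 0.36 (edgeR adjusted p = 0.00682), with a 95% interval of 0.80 to 2.40. The difference from YEXX-2A, 1.19 ± 0.33 (edgeR adjusted p = 0.0188), was lost without YEXX-2A replicate 2 or YWCH-4A replicate 2. The chaperones Psmg1, Psmg2, Psmg3 and Psmg4, which help to assemble the α ring, were not called in any comparison. Of the partner proteins, Psmc3ip, a meiotic recombination factor, rose by 0.31 ± 0.10 with YWCH-4A (edgeR adjusted p = 0.0464), a call lost whichever library was left out, and Psme3ip1 was not called.

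**Figure D3:**
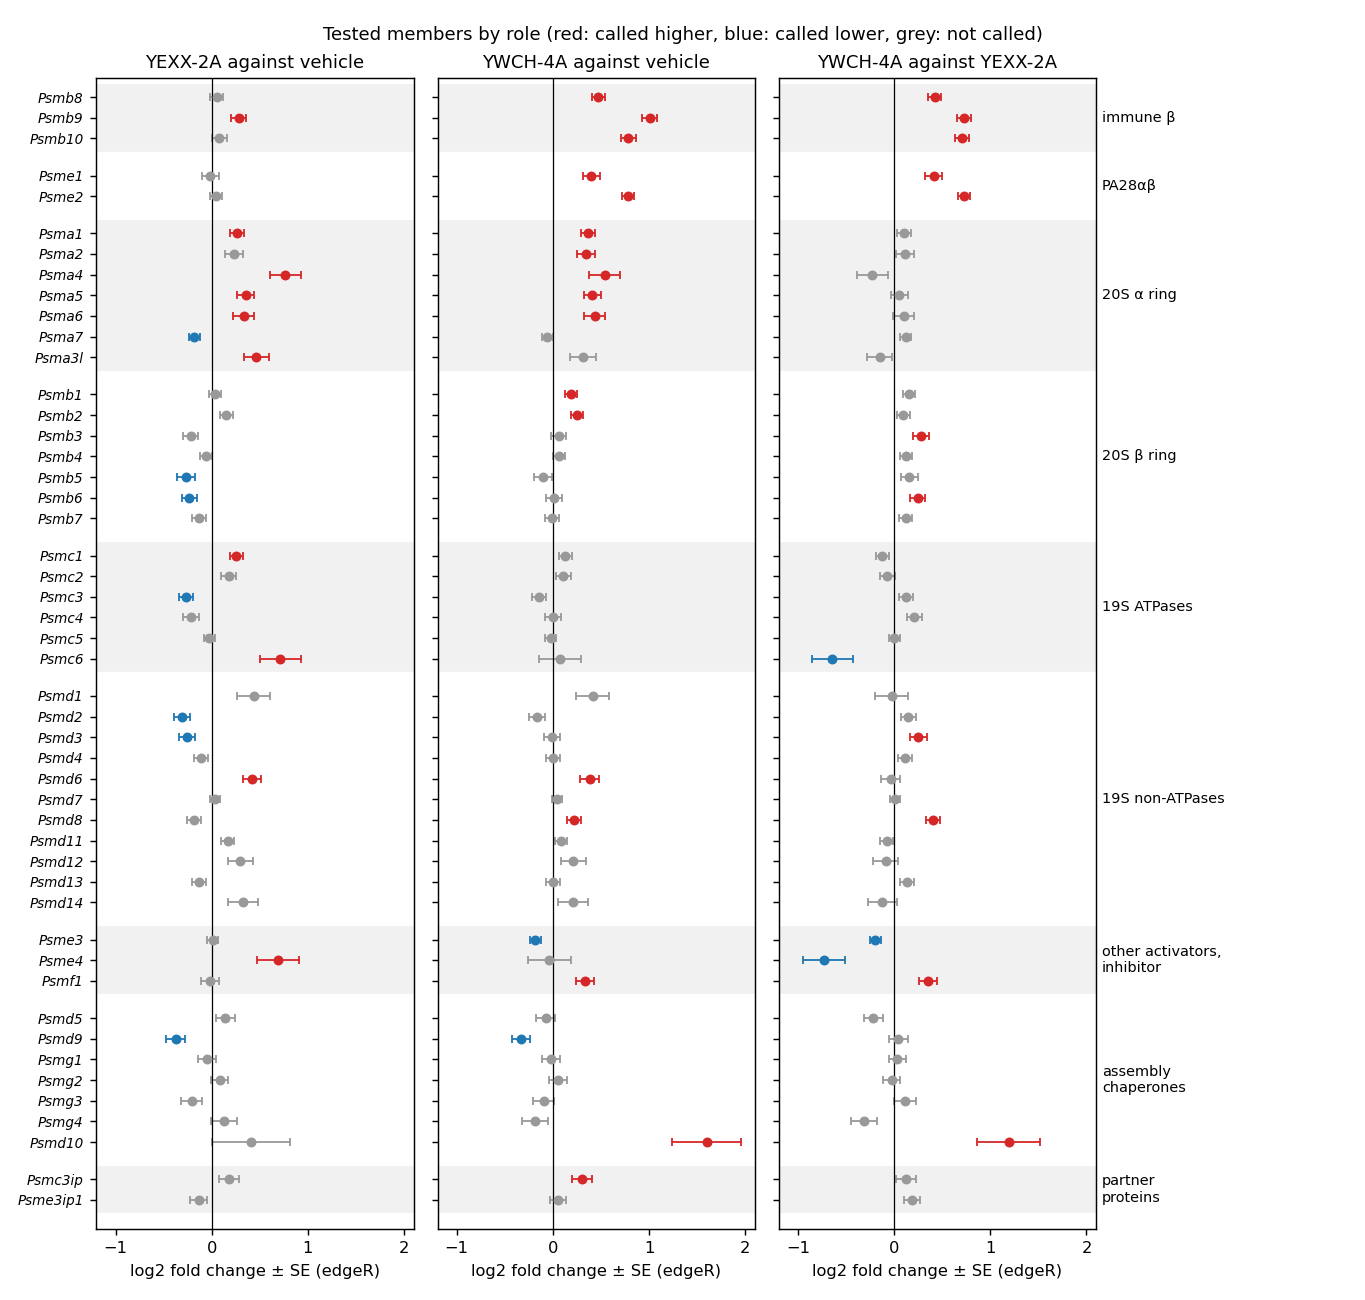
Log2 fold change with its SE (edgeR) for the 48 tested members, grouped by role, in the 3 comparisons; red marks members called higher, blue called lower and grey not called. The immune β and PA28αβ genes are red throughout the 2 comparisons of YWCH-4A, while 5 of 7 α ring genes are red with each compound and none is called between the compounds.

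In the direct comparison the 11 members higher with YWCH-4A were the 5 immune genes, Psmd10, Psmd8, Psmf1, Psmb3, Psmd3 and Psmb6, and the 3 lower were Psme4, Psmc6 and Psme3. The direct comparison gave 6 higher and 0 lower when YEXX-2A replicate 2 was left out, and 7 and 0 without YWCH-4A replicate 2 or 3. It gave 21 and 8 without vehicle replicate 2. That library was in neither group compared and entered through the shared filter, scaling and estimate of spread. The background moved with these counts: it was 10.1% higher and 9.16% lower without YEXX-2A replicate 2, 11.6% and 10.1% without YWCH-4A replicate 2, 10.4% and 9.33% without YWCH-4A replicate 3, and 25.4% and 26.1% without vehicle replicate 2. The 5 immune genes were called each time.

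In vehicle replicate 2, 7 of 48 tested members lay more than 0.5 below the mean of the other vehicle libraries on the log2 scale: Psmc6 (−1.01), Psme4 (−0.96), Psmd1 (−0.80), Psma4 (−0.71), Psmd14 (−0.69), Psmd12 (−0.58) and Psma3l (−0.56). The highest was Psmb5 at 0.32. The immune members deviated by 0.05 to 0.29, all upward, so the log2 fold change of Psmb9 with YWCH-4A was 1.05 without that library. Without the library, 10 members were called higher and 6 lower with YEXX-2A, and 18 and 3 with YWCH-4A. The background in those fits was 17.5% of all genes higher and 17.6% lower with YEXX-2A, and 20.3% and 19.1% with YWCH-4A.

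**Figure D4:**
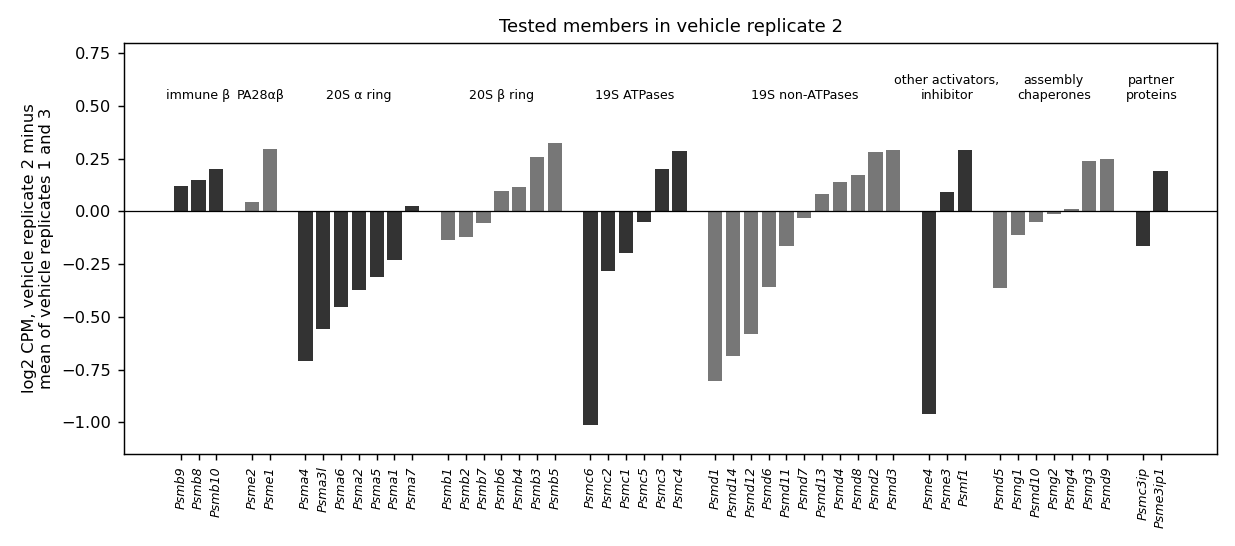
Log2 CPM of each tested member in vehicle replicate 2 minus its mean in vehicle replicates 1 and 3, grouped by role (bars; shades separate roles). Psmc6 and Psme4 lie near −1 and most α ring genes lie below 0, while the immune members lie between 0.05 and 0.29.

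The genes known to induce the immune subunits were followed as a list of 14, all tested. With YWCH-4A 9 rose and none fell (64.3% and 0%, median 0.33), against 15.7% and 14.9% of all tested genes. With YEXX-2A 2 rose and 3 fell (14.3% and 21.4%, median 0.05), near the background of 17.6% and 18.5%. Irf1, the transcription factor through which interferon-γ induces immune subunits, was measured at 86.9, 94.2 and 81.9 CPM with vehicle, 75.4, 70.0 and 71.8 CPM with YEXX-2A, and 171, 169 and 166 CPM with YWCH-4A. The 3 groups did not overlap, with YEXX-2A lowest and YWCH-4A highest. Irf1 rose by 0.95 ± 0.07 with YWCH-4A (edgeR adjusted p = 2.07e-06) and fell by 0.27 ± 0.07 with YEXX-2A (edgeR adjusted p = 0.0157). Nfkb1, which encodes the NF-κB precursor p105, rose by 1.01 ± 0.06 with YWCH-4A, and Nlrc5, the class I transactivator, by 0.96 ± 0.10. The kinase gene Jak2 rose by 1.68 ± 0.16 with YWCH-4A and 0.55 ± 0.16 with YEXX-2A, and Rela fell by 0.31 ± 0.09 with YEXX-2A.

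Of 8 class I peptide-loading genes, 5 rose with YWCH-4A (62.5%, against 15.7% of all tested genes) and 4 with YEXX-2A (50%, against 17.6%). None fell, against 14.9% and 18.5% of all tested genes. B2m, the class I light chain, was measured at 617, 484 and 630 CPM with vehicle, 821, 897 and 758 CPM with YEXX-2A, and 1093, 1228 and 1107 CPM with YWCH-4A. The 3 groups did not overlap, and the log2 fold changes were 0.52 ± 0.10 with YEXX-2A (edgeR adjusted p = 0.00807) and 0.99 ± 0.11 with YWCH-4A (edgeR adjusted p = 4.59e-05). Tap1, the neighbour of Psmb9, was measured at 151, 193 and 153 CPM with vehicle, 171, 162 and 180 CPM with YEXX-2A, and 281, 264 and 268 CPM with YWCH-4A. The vehicle and YEXX-2A libraries overlapped and the YWCH-4A libraries lay above both. Tap1 rose by 0.71 ± 0.09 with YWCH-4A (edgeR adjusted p = 0.000197) and stood at 0.05 with YEXX-2A. Tap2 rose by 0.61 ± 0.13 and Tapbp, the loading chaperone tapasin, by 0.45 ± 0.10 with YWCH-4A. With YEXX-2A the other risers were Pdia3 (0.32 ± 0.09), Erap1 (0.33 ± 0.09) and Canx (0.57 ± 0.16), which act in folding and trimming.

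The arm that senses a shortfall of proteasomes through NRF1 was followed as 6 genes. Of these, 4 rose with YEXX-2A (66.7%, against 17.6% of all tested genes) and 2 with YWCH-4A (33.3%, against 15.7%), and none fell. Nfe2l1 itself was not called (−0.10 with YEXX-2A and −0.07 with YWCH-4A). Ddi2, the protease that activates NRF1, rose by 0.18 ± 0.06 and 0.45 ± 0.06, and Ufd1 by 0.39 ± 0.10 and 0.35 ± 0.10. Ngly1, which removes glycans from NRF1, rose by 0.62 ± 0.15 with YEXX-2A, as did the segregase gene Vcp by 0.17 ± 0.06. Among 17 tested proteasome partners outside the symbol pattern, 5 rose and 5 fell with YEXX-2A (29.4% each, against 17.6% and 18.5% of all genes). With YWCH-4A 1 rose and 3 fell (5.88% and 17.6%, against 15.7% and 14.9%). Pomp, the chaperone that matures both standard and immune cores, was measured at 74.2, 61.0 and 63.7 CPM with vehicle, 93.4, 88.5 and 77.2 CPM with YEXX-2A, and 99.0, 104 and 102 CPM with YWCH-4A. The 3 groups did not overlap. Pomp rose by 0.38 ± 0.09 (edgeR adjusted p = 0.0146) and 0.61 ± 0.09 (edgeR adjusted p = 0.000538). The ubiquitin receptor gene Adrm1 fell by 0.33 ± 0.09 with YEXX-2A, and the importin gene Ipo9 fell by 0.31 ± 0.06 and the shuttle gene Ubqln2 by 0.35 ± 0.08 with YWCH-4A. Between the compounds 6 of the 17 partners were lower with YWCH-4A (35.3%) and none higher, against 15.1% and 16.2% of all tested genes. Among the 6 were Ecpas (−0.67 ± 0.20) and the deubiquitinase gene Usp14 (−0.49 ± 0.16). Of 5 tested ubiquitin and E1 genes, 2 rose and 1 fell with YEXX-2A (40% and 20%, against 17.6% and 18.5% of all genes). With YWCH-4A 1 rose (20%, against 15.7%). The fusion gene Rps27a rose by 0.43 ± 0.09 and 0.33 ± 0.09, and the E1 gene Uba6 rose by 0.98 ± 0.26 with YEXX-2A alone in the calls, with a difference between the compounds of −1.09 ± 0.25 (edgeR adjusted p = 0.00877).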

How the data were processed

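RNA-seq was made from poly(A)-selected RNA, per the labels' protocols. The authors deposited, per gene and library, estimated counts and FPKM in 1 table. The submitters' processing notes list edgeR, DESeq2, RSEM and StringTie (1.3.1), with no roles. Strand use in counting is not stated. Aligner and build are not given in the sources used here. Of estimated counts above 0, 8.87% were not whole, and all were rounded. Genes passing filterByExpr (minimum count 10) were fitted over all 9 libraries with edgeR 4.0.16 (R 4.3.3, TMM, robust quasi-likelihood, group as the only factor). Tests were two-sided, with Benjamini-Hochberg adjustment over 11473 genes per comparison. CPM compares groups, and FPKM as deposited by the authors compares genes. The method was checked on data simulated with the same relative spread for every gene and library. That setting held no outlying library such as vehicle replicate 2, so it cannot show how such a library affects the calls. Alternatives (18) included limma 3.58.1 and DESeq2 1.42.0. Members and lists were chosen with earlier results of these data known. Named are the immune and constitutive catalytic genes, up to 6 largest called rises and falls per comparison and up to 4 called genes per list by adjusted p; Psma6, Psma7, Ecpas and uncalled members were added after their values were seen. An inducer is not reported here.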

Additional observations from a re-analysis of the deposited data

How the results depend on the processing

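For 20 members, the log2 fold changes in the 3 comparisons were followed across the 18 alternatives. None of the 35 called ones changed sign. Some of the 25 uncalled ones did, among them Psmc6 with YWCH-4A against vehicle (−0.19 to 0.32) and Psme1 with YEXX-2A against vehicle (−0.10 to 0.09). Named genes outside the members were not followed across the alternatives. The 5 immune genes stayed called with YWCH-4A against both groups in all 18. The counts of members called moved as follows. On log2(FPKM + 1) and on log2(FPKM + 0.1), 29 rose and 0 fell with YWCH-4A, 3 fell with YEXX-2A, and 21 were higher and 0 lower between the compounds. Over all genes the shares in that order were 32% and 8.98%, 12.3%, and 26% and 9.81% on the first scale. On the second they were 31.4% and 8.95%, 12.2%, and 25.5% and 9.24%. Fitted on the 2 groups compared, 2 rose and 0 fell with YEXX-2A, 10 rose and 1 fell with YWCH-4A, and 22 were higher and 8 lower between the compounds, against 5.92% and 6.59%, 11.6% and 12.6%, and 25.4% and 26.1% of all genes. With no filter 1 member fell with YWCH-4A and 2 were lower between the compounds, against 11% of all genes in each. With the replicate block, 5 rose and 1 fell with YEXX-2A, 12 rose and 1 fell with YWCH-4A, and 7 were higher and 0 lower between the compounds, against 7.5% and 9.33%, 12.2% and 12.1%, and 12.0% and 10.8% of all genes. Libraries with the same replicate number did not deviate together: 0 of 9 same-number pairs had deviations correlated over 0.1 (−0.265 to 0.081, against −0.203 to 0.234 for the 18 other pairs). With groups of 3 libraries, these correlations cannot show whether same-number libraries were prepared together. The block is given here only. Leaving out each library in turn gave 1 to 13 higher and 0 to 10 lower with YEXX-2A, 11 to 18 and 0 to 3 with YWCH-4A, and 6 to 21 and 0 to 8 between the compounds. The share of all genes called moved too. It ran from 3.87% to 23.5% higher and 5.15% to 22.1% lower with YEXX-2A, and from 10.6% to 20.3% and 10.6% to 19.1% with YWCH-4A. Between the compounds it ran from 10.1% to 25.4% and 9.16% to 26.1%. Of 628 refits of the 35 called fold changes among those 20 members, 492 kept the call and 136 lost it. Of 448 refits of the 25 uncalled, 427 stayed uncalled and 21 gained a call. The cause was not tested, beyond the smaller number of libraries where some were left out. Depth limits Psmd10, Psma8 and Psmb11, whose counts were too low for precise folds.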
